A study of Homo sapiens with 12 samples.

Results

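The 10 genes described here encode the AP-1 transcription factors FOS, FOSB, FOSL1, FOSL2, JUN, JUNB, JUND, ATF3, BATF3, and JDP2. They were taken by gene name from the 58735 genes of the deposited count table, and 29789 of these had a count in some library. RNA was sequenced from TIGK, a single line of human gingival keratinocytes immortalized with hTERT. Untreated control cells received no Arg and Arg-treated cells received 500 µM L-arginine (Arg), all at 48 mM glucose, and each was collected at 24 and 48 h, with 3 libraries (replicates A, B, and C) in each of the 4 groups. The base medium lacked Arg. The methods name insulin, TGF-α, epinephrine, hydrocortisone, and pituitary extract among its supplements, added when needed, and do not list them by group. Before RNA extraction, all cells were detached with TrypLE, washed, and centrifuged. The labels and methods do not say whether the replicates were separate experiments, so the p-values below measure the spread between these libraries, which may be technical.

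AP-1 is a dimer of basic leucine zipper (bZIP) proteins. JUN proteins pair with each other or with FOS proteins, whereas FOS proteins need a partner, and the dimers bind the letters TGACTCA or, with ATF partners, TGACGTCA. FOS, FOSB, JUN, JUNB, and ATF3 are classical early response genes whose transcripts are induced within minutes by growth factors, stress, or handling and are then quickly degraded, and FOSL1 and FOSL2 follow more slowly. In keratinocytes, AP-1 is known to regulate genes of proliferation, differentiation, and matrix degradation.

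The libraries held between 16542243 and 19040964 counts, and the 10 genes together took 11467 to 20120 of them. All 12 keratinocyte markers were present, with KRT5 between 24096 and 31666 CPM, read counts scaled to library size with TMM factors. Among 7 fibroblast markers, COL1A2, COL3A1, and PDGFRA stayed under 1 CPM in every library, whereas DCN reached 76.1 CPM and COL1A1 27.0 CPM. Of 6 melanocyte markers, TYR had 0 counts, 5 stayed under 1 CPM in every library, and PMEL reached 2.84 CPM. Of 8 immune and endothelial markers, LYZ and MS4A1 had 0 counts, 7 stayed under 1 CPM, and VWF reached 1.84 CPM. Control replicate B stood apart at both times, and so did Arg replicate A at 24 h. Counts were compared between replicates by a chi-square per degree of freedom. At 24 h, control replicate B differed from A and C by 12.3 and 12.5, where A and C differed by 6.54, and Arg replicate A differed from B and C by 12.4 and 10.9, where B and C differed by 5.41. In the control at 24 h, the 13 other immediate early genes of the list used below summed to 1332 CPM in replicate B, whereas replicates A and C reached 1895 and 1963 CPM. The Arg libraries at 24 h summed to 1321, 1455, and 1338 CPM, so control replicate B lay within their range. The known AP-1 targets of the list used below summed to 992 CPM in control replicate B, also within the Arg range of 960 to 1012 CPM. Control replicates A and C had target sums of 1132 and 1161 CPM. At 48 h, control replicate B differed from A and C by 20.9 and 23.9, where A and C differed by 3.66, and mitochondrially encoded genes took 1.55% of its counts, against 0.906% and 0.707%.

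Compared per kilobase of exon, JUNB had the highest level of the 10 genes in every group. Its level was 158 ± 13.1 CPM per kb in the control at 24 h (mean ± SD, n = 3 here and below) and 122 ± 24.0 in Arg at 24 h. JUNB encodes a JUN protein that often restrains proliferation. In the control at 24 h, FOSL1 (66.0 ± 20.9 CPM per kb), JUND (52.0 ± 9.67), and FOS (49.9 ± 10.8) came next, and their libraries overlapped from each gene to the next in this order. FOSL2 (29.8 ± 3.28 CPM per kb) and JUN (17.8 ± 0.387) lay clearly below these, with no overlap between neighbours. JDP2 (5.83 ± 0.581), ATF3 (5.50 ± 1.80), FOSB (2.72 ± 1.06), and BATF3 (0.762 ± 0.220) were the low members, and of these neighbours the libraries of FOSB and BATF3 did not overlap. In Arg at 24 h, FOS stood at 12.02 ± 1.22 CPM per kb, in rank 6 in place of rank 4, and its libraries overlapped those of JUN. By 48 h, FOSL1 had moved from rank 2 to rank 6 in both the control (19.3 ± 5.36 CPM per kb) and Arg (17.1 ± 1.94).

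The summed level of the 10 genes was 419.6, 349, and 398 CPM per kb in control replicates A, B, and C at 24 h. It was 231, 280.1, and 283 CPM per kb in the Arg libraries at 24 h, all below the control libraries, with Arg replicate A the lowest. At 48 h, the sums were 347, 348, and 344 CPM per kb in the control and 306, 277, and 286 in Arg, and again the groups did not overlap. Within the sum, FOS took 12.7 ± 1.63% in the control and 4.57 ± 0.532% in Arg at 24 h. At 48 h, its share was 11.9 ± 0.215% in the control and 7.36 ± 0.568% in Arg. The JUN family (JUN, JUNB, and JUND) took 59.0 ± 4.15% of the sum in the control and 64.9 ± 3.50% in Arg at 24 h, and the FOS family took 37.9 ± 4.08% and 31.9 ± 3.60%. RNA of whole cultures was measured, so fewer cells that express a gene cannot be told apart from less of its RNA per cell.

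**Figure D1:**
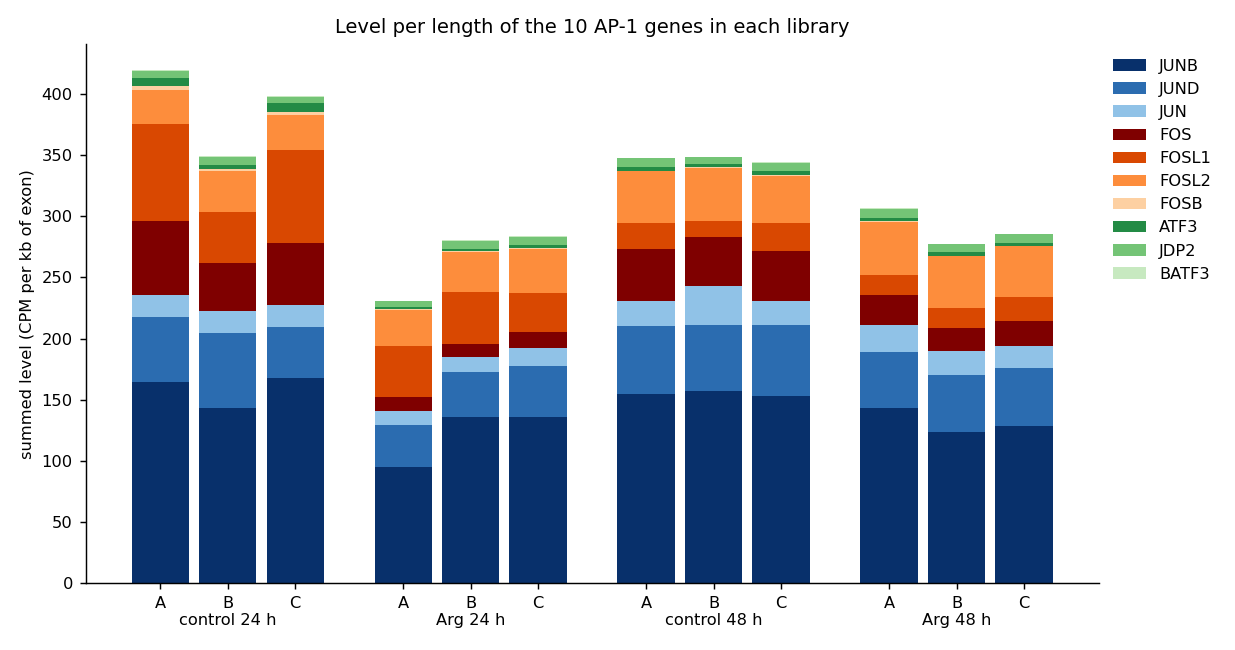
Stacked bars give the level of each AP-1 gene in CPM per kilobase of exon (vertical axis) for the 12 libraries (horizontal axis, replicates A, B, and C of each group). The FOS segment is narrowest in the 3 Arg libraries at 24 h, where it averages 12.02 CPM per kb, against 49.9 in the control, and JUNB is the largest segment in every library.

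The 5′ flanking sequences of the members are shown because most of these genes fell together at 24 h, as described below. RefSeq promoter windows of GRCh38.p14, with 250 bases before and 50 after a gene's start, were matched for 8 of the 10 genes (11 windows, since some genes have several starts), and not for FOSL1 or BATF3. The bases before the start were searched on both strands for TGACTCA, TGACGTCA, TGACATCA (a variant known from JUN), TGACG (the beginning of the cAMP response element TGACGTCA, and so contained in it), and the CArG box of serum response factor, and on the gene's strand for TATAA. The stretches of FOS and FOSB, the members with the largest falls at 24 h, are given at length and end before the gene as deposited. Sites of 30 bases are given for the other 6 genes, each written along the strand of its gene, and those of JUN, FOSL2, and JDP2 lie within the deposited span of the gene. Capitals mark TGACG, TGACATCA, TGACGTCA, or TATAA.
FOS, chr14:75278624-75278773, plus strand: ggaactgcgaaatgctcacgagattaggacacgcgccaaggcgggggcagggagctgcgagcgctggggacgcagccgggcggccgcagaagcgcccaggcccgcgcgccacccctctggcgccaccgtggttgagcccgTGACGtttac
FOSB, chr19:45467845-45467994, plus strand: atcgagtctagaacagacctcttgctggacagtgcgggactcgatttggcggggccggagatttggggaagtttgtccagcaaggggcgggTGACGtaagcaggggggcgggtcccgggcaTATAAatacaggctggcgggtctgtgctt
JUN, chr1:58784096-58784125, minus strand: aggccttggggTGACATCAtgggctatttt
ATF3, chr1:212565273-212565302, plus strand: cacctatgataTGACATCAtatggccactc
JUND, chr19:18281804-18281833, minus strand: ggccgcccccaTGACGTCAacccacaaggc
JUNB, chr19:12791336-12791365, plus strand: cgcttcctgacagTGACGcgagccgcctcc
FOSL2, chr2:28392779-28392808, plus strand: tggagtctggggtTGACGtgagtgaatcca
JDP2, chr14:75427912-75427941, plus strand: ctccgtccccctcTGACGtctggagctggc

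TGACG was found before the start in 7 of the 8 genes, all but ATF3, and in 7 of their 11 windows, against 21.2% of all 35116 windows. In FOS it lay 64 to 60 bases before the start, and in FOSB 60 to 56. JUND held the whole TGACGTCA, 200 to 193 bases before the start, as did 1.65% of all windows. TGACATCA was found in JUN, 67 to 60 bases before the start, and in ATF3, 123 to 116, against 2.37% of all windows. FOSL2 and JDP2, which were not called with Arg at 24 h, also held TGACG, and ATF3, which was, did not. TGACTCA was in 0 of the 11 windows (4.2% of all), and the CArG box was in 0 (1.16% of all). The known serum response element of FOS lies further upstream than these windows. TATAA was found in 5 of the 11 windows, in FOS, FOSB, JUNB, JUND, and ATF3, against 13.6% of all windows. It lay 33 to 29 bases before the start in FOS, 30 to 26 in FOSB, 31 to 27 in JUNB, and 29 to 25 in JUND. In ATF3 it lay 230 to 226 bases before the start, in another window than TGACATCA. These are matches of letters, and no factor's binding was measured.

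Arg-treated and untreated cells were first compared at 24 h. Of the 10 genes, 6 were lower with Arg and 0 were higher at an adjusted p under 0.05 in edgeR's quasi-likelihood test, against 3.84% lower and 2.79% higher among all 14279 genes tested. FOS, FOSB, ATF3, FOSL1, JUN, and JUND were lower, by between 1.4 and 4.16 times. JUNB, FOSL2, BATF3, and JDP2 did not pass the test. At an unadjusted p under 0.05, 7 were lower and 0 higher, against 11.9% lower and 10.8% higher among all genes. DESeq2 called 6 lower and 0 higher, against 4.52% and 3.46%. Without control replicate B, 7 were lower (6.02% of all genes), and without Arg replicate A, 5 (4.36%). The libraries of the groups did not overlap for 6 members, all lower with Arg (FOS, FOSB, JUN, JUNB, JUND, and ATF3), against 13.4% of all genes that lay lower without overlap. The median log2 fold change was -0.50 over the 10 members and 0.0030 over all genes tested. The members were chosen with earlier results of these data known, so their contrast with all genes is a description and no independent test.

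FOS, on chromosome 14 (75278774 to 75282230, plus strand), is the founding member of the FOS family and pairs with JUN proteins. Its level was 196, 126, and 162 CPM in control replicates A, B, and C at 24 h and 37.3, 36.02, and 43.4 CPM in the Arg replicates. Every Arg library lay far below every control library. The log2 fold change was -2.05 (SE 0.13, adjusted p = 4.26e-08, edgeR's quasi-likelihood test), a 4.16-fold lower level, and FOS ranked 2 of 14279 genes by p. Control replicate B was the lowest control, and without it the log2 fold change was -2.21 (SE 0.10).

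FOSB, a close relative of FOS, was at 19.3, 8.41, and 17.7 CPM in the control replicates and at 4.27, 3.78, and 3.65 CPM with Arg. The groups did not overlap although control replicate B was less than the other controls by a wide margin. The log2 fold change was -1.96 (SE 0.25, adjusted p = 0.000124, edgeR's quasi-likelihood test), and -2.25 (SE 0.17) without control replicate B. FOSB overlaps ERCC1 on the other strand, and whether reads were counted by strand is not given in the sources used here, so part of its count may belong to ERCC1. ERCC1 had 5783 counts over all libraries against 1344 for FOSB, and its own log2 fold change at 24 h was -0.27 (adjusted p = 0.179).

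ATF3, a stress-induced bZIP factor that can repress as well as activate, was at 25.9, 13.8, and 26.9 CPM in the control replicates and at 8.81, 7.51, and 9.07 CPM with Arg. The lowest control, replicate B, was above the highest Arg library. Its log2 fold change was -1.39 (SE 0.20, adjusted p = 0.000464, edgeR's quasi-likelihood test).

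FOSL1 encodes FRA-1, a FOS protein without the transactivation domain of FOS, known for its response to sustained MAP kinase signals. Its level was 149.8, 79.1, and 145 CPM in the control replicates and 78.5, 79.3, and 59.6 CPM with Arg. Control replicate B lay among the Arg libraries, so the groups overlapped. The log2 fold change was -0.78 (SE 0.17, adjusted p = 0.0108, edgeR's quasi-likelihood test). FOSL1 was no longer called without control replicate A (adjusted p = 0.0815), without Arg replicate C (0.0625), or with DESeq2 (0.106), whereas without control replicate B the log2 fold change was -1.03 (adjusted p = 2.10e-06).

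JUN, the main partner of FOS, was at 61.6, 63.5, and 64.3 CPM in the control replicates and at 41.0, 43.9, and 50.8 CPM with Arg. The control libraries lay close together and above all Arg libraries. The log2 fold change was -0.48 (SE 0.096, adjusted p = 0.00555, edgeR's quasi-likelihood test). JUND, the most constantly expressed JUN protein in many cells, was at 99.6, 113, and 77.7 CPM in the control replicates and at 64.2, 67.2, and 76.8 CPM with Arg. Control replicate C was only just above Arg replicate C. With Arg, the log2 fold change was -0.48 (SE 0.12, adjusted p = 0.0183, edgeR's quasi-likelihood test), and JUND was not called without control replicate A (0.0853), Arg replicate A (0.0584), or Arg replicate B (0.0963).

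JUNB was at 299, 261, and 305 CPM in the control replicates and at 172, 248, and 248 CPM with Arg. The groups did not overlap, and Arg replicate A was the lowest library. The log2 fold change of -0.37 (SE 0.11) had an adjusted p of 0.0567 in edgeR's quasi-likelihood test. JUNB passed the test without control replicate B (-0.44, adjusted p = 0.0166), with DESeq2 (0.0310), with no filter on low counts (0.000436), and with all 12 libraries in a single model (0.0402). It did not pass in the other 5 fits that left out 1 library (up to 0.186), and without Arg replicate A the log2 fold change was -0.22 (0.116). JUNB overlaps HOOK2 on the other strand, which had 5230 counts against 56332 for JUNB and a log2 fold change of 0.044 (adjusted p = 0.876).

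FOSL2, which encodes the slower FOS relative FRA-2, was at 200.2, 240.5, and 199.7 CPM in the control replicates and at 208, 233, and 261 CPM with Arg. The groups overlapped, with a log2 fold change of 0.13 (SE 0.094, adjusted p = 0.428, edgeR's quasi-likelihood test). JDP2, a repressor that pairs with JUN proteins, ranged from 33.9 to 40.5 CPM in the control and from 27.9 to 42.0 CPM with Arg. Its log2 fold change was -0.00050 (SE 0.13, adjusted p = 0.999). BATF3, best known from dendritic cells, had between 19 and 50 counts per library at 24 h, with 1.52 to 2.71 CPM in the control and 1.02 to 2.09 CPM with Arg, and its log2 fold change was -0.52 (SE 0.38, adjusted p = 0.447).

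Mitochondrially encoded genes took 1.20% to 1.30% of the counts in the control libraries at 24 h and 0.624% to 0.802% in the Arg libraries. This share thus separated the groups, as did the levels of the members called lower, except for FOSL1, whose groups overlapped. The part of the mitochondrial share in the result was not tested. The 11 heat shock genes of a list for handling stress summed to 10105 to 11393 CPM in the control and 10106 to 11343 CPM with Arg at 24 h, with 0 called in either direction by edgeR, at an unadjusted p under 0.05, or by DESeq2.

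**Figure D2:**
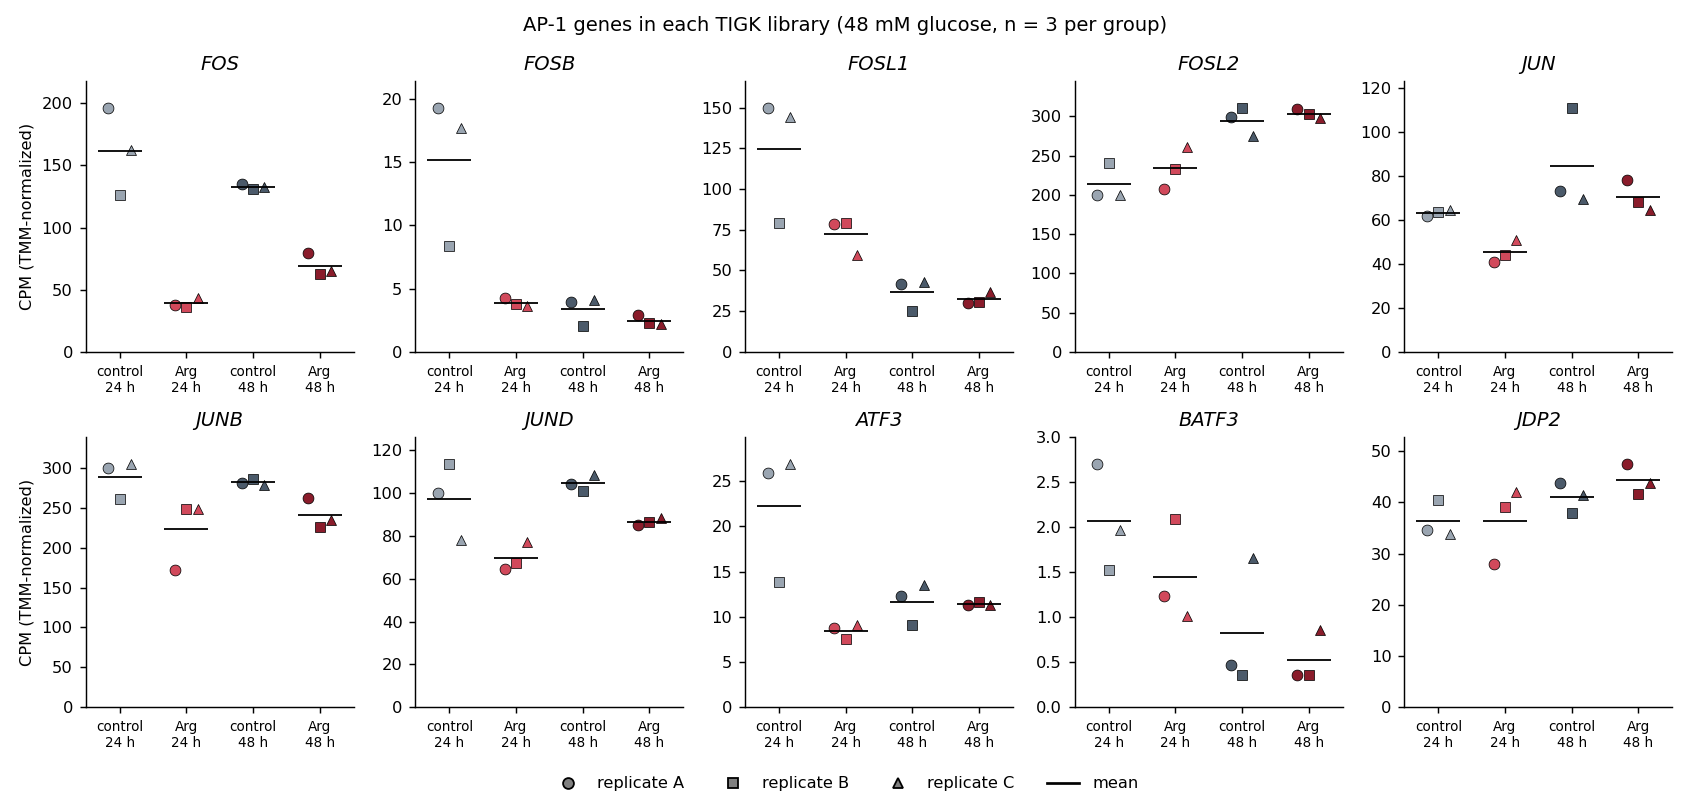
Each panel gives a gene's level in CPM (vertical axis, from 0) in the 12 libraries by group (horizontal axis), with symbols for replicates A, B, and C and a line at the mean of the 3. At 24 h, the Arg libraries of FOS sit at 36.02 to 43.4 CPM, below the control libraries at 126 to 196 CPM, and control replicate B is the lowest control for FOS, FOSB, FOSL1, and ATF3.

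At 48 h, FOS was again lower with Arg and was the only member called. Of 9 members tested, 1 was lower and 0 were higher at an adjusted p under 0.05 in edgeR's quasi-likelihood test, against 0.117% lower and 0% higher among all 14562 genes tested. Over all genes, 865 higher ones had an unadjusted p under 0.05 and DESeq2 called 40 at an adjusted p under 0.05. Of the members, DESeq2 called 2 lower (FOS and JUND) and 0 higher, against 0.989% lower and 0.275% higher among all genes. At an unadjusted p under 0.05, 3 members were lower and 0 higher, against 7.49% and 5.94% of all genes. BATF3, with 6 to 31 counts per library, did not pass the filter on low counts. FOS, JUNB, and JUND lay lower in Arg without overlap between the groups, against 8.52% of all genes tested. The median log2 fold change was -0.23 over the 9 members and 0.0018 over all genes.

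FOS was at 135, 131, and 133 CPM in control replicates A, B, and C at 48 h and at 79.4, 62.9, and 65.3 CPM with Arg. The controls were nearly equal, and all Arg libraries lay well below them. FOS had a log2 fold change of -0.94 (SE 0.088, adjusted p = 0.000507, edgeR's quasi-likelihood test), a 1.92-fold lower level. It kept its call without any 1 of the 6 libraries, with the largest adjusted p at 0.0143.

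JUND was at 104, 101, and 108 CPM in the control replicates and 84.9, 86.4, and 88.1 CPM with Arg at 48 h. The groups were tight and did not overlap, and the log2 fold change of -0.27 (SE 0.065) had an adjusted p of 0.145 in edgeR's quasi-likelihood test. JUNB was at 281, 286, and 278 CPM in the control and 261, 226, and 234 CPM with Arg. These groups did not overlap either, and the log2 fold change was -0.23 (SE 0.068, adjusted p = 0.201, edgeR's quasi-likelihood test).

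The other members overlapped between the groups at 48 h. FOSL1 ranged from 24.9 to 43.2 CPM in the control and from 30.1 to 36.6 CPM with Arg (-0.18, SE 0.17, adjusted p = 0.686). FOSB ranged from 2.07 to 4.07 CPM and from 2.19 to 2.92 CPM (-0.44, SE 0.31, adjusted p = 0.566). ATF3, at 9.07 to 13.5 CPM in the control and 11.3 to 11.6 CPM with Arg, had a log2 fold change of -0.029 (SE 0.16, adjusted p = 0.956). In all of these 3 genes control replicate B was the lowest library. JUN was at 73.3, 110.7, and 69.2 CPM in the control and 78.2, 68.0, and 64.4 CPM with Arg, with control replicate B high above the rest (-0.27, SE 0.15, adjusted p = 0.463). Without that library the log2 fold change of JUN was -0.021 (0.898). FOSL2 (0.040, adjusted p = 0.819) and JDP2 (0.11, adjusted p = 0.626) also did not pass edgeR's quasi-likelihood test.

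The number of members called at 48 h depended on control replicate B. Without it, 4 were lower in edgeR's quasi-likelihood test, namely FOS (-0.95, adjusted p = 1.46e-08), FOSL1 (-0.39, 0.00609), JUND (-0.30, 0.00215), and JUNB (-0.22, 0.0191). In that fit the share of all genes called lower was 8.17%, so it rose for genes in general. Mitochondrially encoded genes took 1.14% to 1.31% of the counts in Arg at 48 h. This lay above control replicates A (0.906%) and C (0.707%) and below control replicate B (1.55%). The heat shock genes summed to 6547 to 7083 CPM in Arg and 6904 to 7808 CPM in the control. Of the 11 heat shock genes, 5 were lower and 0 higher at an unadjusted p under 0.05 at 48 h, against 7.49% and 5.94% of all genes. At an adjusted p under 0.05, edgeR's quasi-likelihood test called 1 lower (0.117% of all genes) and DESeq2 called 1 lower (0.989%).

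**Figure D3:**
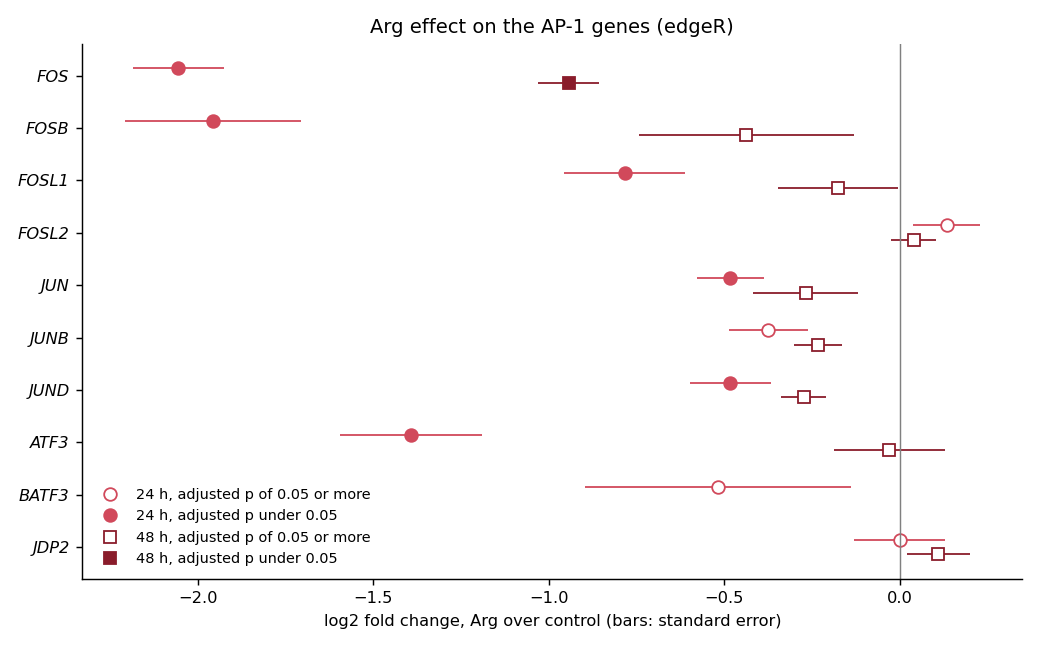
Points give the log2 fold change of each AP-1 gene (vertical axis), Arg over control (horizontal axis), at 24 h and 48 h, with bars of 1 standard error from the edgeR fit and filled points for an adjusted p under 0.05. At 24 h, 6 points are filled and all lie below 0, and at 48 h only that of FOS (-0.94) is filled.

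The difference between the Arg effects at 24 and 48 h was tested as an interaction over all 12 libraries. The fall of FOS was smaller at 48 h, with a difference between the log2 fold changes of 1.11 (SE 0.17, adjusted p = 0.0229, edgeR's quasi-likelihood test), and FOS was 1 of the 2 genes called among 15148, which is 0.0132%. The other was MT-RNR1, a mitochondrial ribosomal RNA named here after its value was seen (0.83, SE 0.13). ATF3 (1.36, SE 0.28, adjusted p = 0.168), FOSB (1.52, SE 0.41, 0.352), and FOSL1 (0.61, SE 0.28, 0.708) did not pass this test. With all libraries, DESeq2 called ATF3 (1.37, adjusted p = 0.00365), and edgeR with no filter on low counts called ATF3 (1.33e-06), FOSB (0.00223), and FOSL1 (0.00570), so whether the fall of these 3 genes differed between the times depended on the processing. For the other 6 members the difference lay between -0.13 and 0.22. The call of FOS was lost without any 1 of 10 libraries (differences of 0.95 to 1.20, adjusted p = 0.0510 to 0.178) and held without control replicate B at 24 h (1.27, 0.000503) or at 48 h (1.10, 0.00224). Without control replicate B of both times, FOS, FOSB, ATF3, and FOSL1 were called, with differences of 1.26, 1.57, 1.47, and 0.65, and the share of all genes called in this direction was 0.415%.

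Time was compared within each treatment, which uses the same control or Arg libraries as the comparisons above. In the control, 3 members were lower and 1 was higher at 48 h than at 24 h in edgeR's quasi-likelihood test, against 10% lower and 9.9% higher among all 14449 genes tested. FOSB fell from 15.1 ± 5.87 to 3.36 ± 1.12 CPM (log2 fold change -2.17, SE 0.32, adjusted p = 0.00204). FOSL1 fell from 124 ± 39.4 to 36.5 ± 10.1 CPM (-1.77, SE 0.23, adjusted p = 0.00159). ATF3 fell from 22.2 ± 7.29 to 11.6 ± 2.29 CPM (-0.93, SE 0.23, adjusted p = 0.0163), and its call was lost without control replicate A at 24 h (0.0900) or C at 24 h (0.0864). FOSL2 rose from 213 ± 23.4 to 295 ± 18.4 CPM (0.47, SE 0.088, adjusted p = 0.00532). FOS went from 162 ± 34.9 to 133 ± 2.08 CPM, with overlap at replicate B of 24 h (-0.28, SE 0.13, adjusted p = 0.139), and was called without that library (-0.43, 0.00747). JUN, JUNB, JUND, BATF3, and JDP2 did not pass the test, with log2 fold changes between -1.31 and 0.42.

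With Arg, 5 members were higher and 2 were lower at 48 h than at 24 h, against 14.3% higher and 14% lower among all 14398 genes tested. FOS rose from 38.9 ± 3.96 to 69.2 ± 8.94 CPM (0.83, SE 0.10, adjusted p = 5.33e-06, edgeR's quasi-likelihood test), and JUN from 45.2 ± 5.04 to 70.2 ± 7.20 CPM (0.64, SE 0.096, adjusted p = 6.20e-05). FOSL2 (0.37, adjusted p = 0.00102), JUND (0.32, 0.00595), and ATF3 (0.43, 0.0347) were also higher. FOSL1, in contrast, fell from 72.5 ± 11.2 to 32.4 ± 3.66 CPM (-1.16, SE 0.11, adjusted p = 2.45e-07), and BATF3 fell from 1.45 ± 0.569 to 0.528 ± 0.290 CPM (-1.45, SE 0.50, adjusted p = 0.0358). The call of ATF3 was lost without Arg replicate B at 24 h (0.121) or any 1 Arg library at 48 h (0.0724 to 0.0946). That of BATF3 was lost without Arg replicate B at 24 h (0.192) or A or B at 48 h (0.140 and 0.133). FOSB (-0.65, adjusted p = 0.0637), JUNB (0.11, 0.471), and JDP2 (0.29, 0.0765) did not pass the test. From 24 to 48 h, the heat shock sum was lower in both treatments, and the fibroblast markers summed to 30.2 to 54.4 CPM at 24 h and 72.6 to 102 CPM at 48 h. Their part in the changes with time was not tested.

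**Figure D4:**
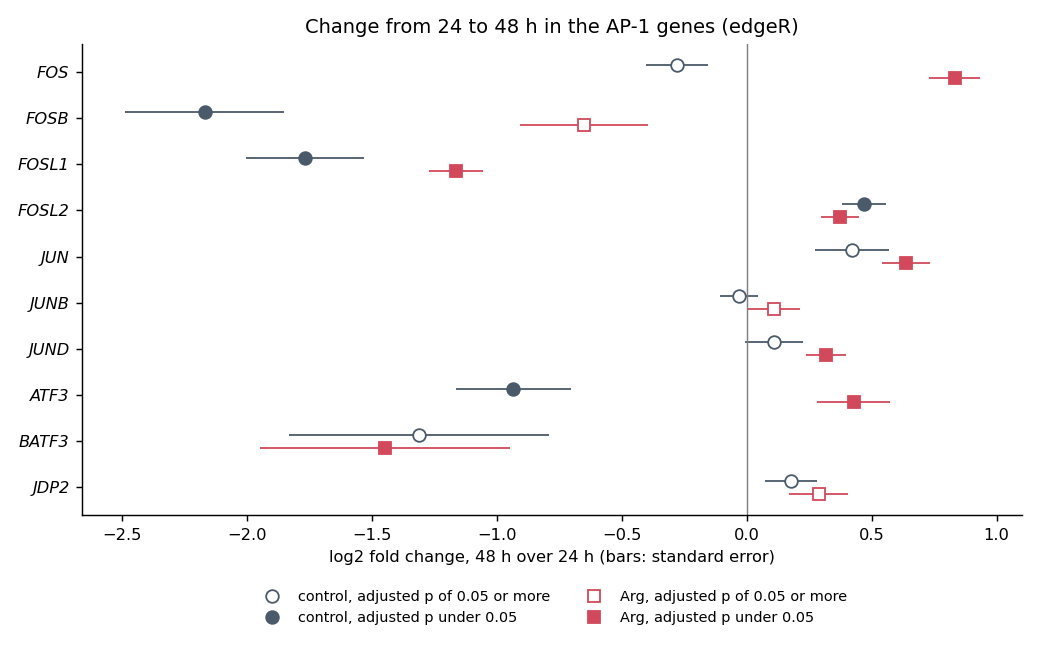
Points give the log2 fold change of each AP-1 gene (vertical axis), 48 h over 24 h (horizontal axis), within the control and within Arg, with bars of 1 standard error from the edgeR fit and filled points for an adjusted p under 0.05. FOSL1 lies to the left in both treatments, whereas FOS is at -0.28 in the control and 0.83 with Arg.

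The partners, upstream kinases, and targets of AP-1 were read from the same comparisons, and these lists too were chosen with earlier results of these data known. Among all genes tested with Arg at 24 h, 3.84% were called lower and 2.79% higher. At an unadjusted p under 0.05, 11.9% were lower and 10.8% higher, and DESeq2 called 4.52% lower and 3.46% higher. Among 16 tested bZIP genes outside the 10, such as ATF, CREB, MAF, and NFE2L factors, 2 were lower and 0 higher with Arg at 24 h (median -0.018). CREB5, which can pair with JUN, was at 3.60 ± 0.208 CPM in the control and 1.14 ± 0.538 CPM with Arg (-1.64, SE 0.35, adjusted p = 0.00887, edgeR's quasi-likelihood test), and MAFF, a small MAF protein without a transactivation domain, was at 27.0 ± 6.34 and 18.1 ± 3.67 CPM (-0.58, SE 0.17, adjusted p = 0.0472). Of the bZIP genes, 2 were lower and 1 higher without adjustment, and DESeq2 called 2 lower and 0 higher. Of 17 MAP kinases and MAP kinase kinases, 1 was lower and 0 were higher, against 3.84% and 2.79% of all genes. This was MAP2K1, which encodes the ERK kinase MEK1, at 111 ± 15.9 CPM in the control and 79.4 ± 0.488 CPM with Arg (-0.48, SE 0.099, adjusted p = 0.00705). Without adjustment, 4 of the kinases were lower and 2 higher, and DESeq2 called 1 lower and 0 higher. Serum response factor and its cofactors, 6 genes, had 0 calls in either direction with edgeR's quasi-likelihood test (median -0.010), where 2 were lower and 1 higher at an unadjusted p under 0.05 and DESeq2 called 1 lower.

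Among 13 other immediate early genes, 3 were lower and 0 higher with Arg at 24 h, against 3.84% and 2.79% of all genes, with a median of -0.21. DUSP1, a phosphatase that inactivates MAP kinases, was at 332, 250.2, and 346 CPM in the control replicates and 109, 108, and 119 CPM with Arg. These groups did not overlap (-1.47, SE 0.11, adjusted p = 1.52e-07, edgeR's quasi-likelihood test). IER3 (-0.82, SE 0.14, adjusted p = 0.00250) and the nuclear receptor NR4A1 (-0.90, SE 0.23, 0.0238) were the others, whereas EGR1 (-0.12, 0.697), MYC (-0.16, 0.444), and IER2 (0.18, 0.347), named here after their values were seen, did not pass the test. At an unadjusted p under 0.05, 5 of the list were lower and 0 higher, against 11.9% and 10.8% of all genes. DESeq2 called 3 lower and 0 higher.

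Of 21 known AP-1 targets in keratinocytes and other cells, 16 were tested at 24 h. Of these, 3 were lower and 0 higher (median -0.36), against 3.84% and 2.79% of all genes. At an unadjusted p under 0.05, 8 targets were lower and 0 higher, against 11.9% and 10.8%, and DESeq2 called 2 lower and 0 higher. MMP1, the interstitial collagenase, was at 28.4, 18.8, and 59.3 CPM in the control replicates and 6.29, 5.18, and 2.26 CPM with Arg (-2.96, SE 0.35, adjusted p = 6.06e-05, edgeR's quasi-likelihood test). The control libraries spread widely but all lay above the Arg libraries. MMP10, stromelysin-2, was at 2.49, 0.903, and 3.42 CPM and at 0.168, 0.233, and 0.215 CPM (-3.42, SE 0.57, adjusted p = 0.00151). CXCL8, a neutrophil chemokine, was at 7.79, 1.52, and 8.28 CPM and at 2.98, 0.873, and 0.967 CPM, so control replicate B lay among the Arg libraries (-1.87, SE 0.50, adjusted p = 0.0320). TGACTCA was found before the start in 6 of 15 promoter windows of the target list, against 4.2% of all windows. It was found in CXCL8, IVL, LORICRIN, PLAUR, SPRR1A, and SPRR1B, and not in the window of MMP10. Of these 6 genes, only CXCL8 was called with Arg at 24 h. Windows were matched for 14 of the 21 targets, and MMP1 had none, so it was not searched.

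At 48 h, 0 genes of the partner, kinase, serum response factor, immediate early, and target lists were called in either direction with edgeR's quasi-likelihood test. At an unadjusted p under 0.05, 8 immediate early genes and 6 targets were lower and 0 of either list were higher, against 7.49% lower and 5.94% higher among all genes, and DESeq2 called 2 immediate early genes lower and 0 targets. Of the partners, 2 were lower and 2 higher without adjustment, of the kinases 1 and 1, and of the serum response factor list 0 and 0, and DESeq2 called 0 genes of these lists. The immediate early list had a median of -0.25 and the target list one of -0.22, against 0.0018 over all genes. DUSP1 was at 247 ± 71.5 CPM in the control and 128 ± 8.35 CPM with Arg (-0.95, SE 0.16, adjusted p = 0.0608). Among the heat shock genes, HSPE1, a mitochondrial chaperonin, was lower at 48 h (-0.56, SE 0.088, adjusted p = 0.0315).

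**Figure D5:**
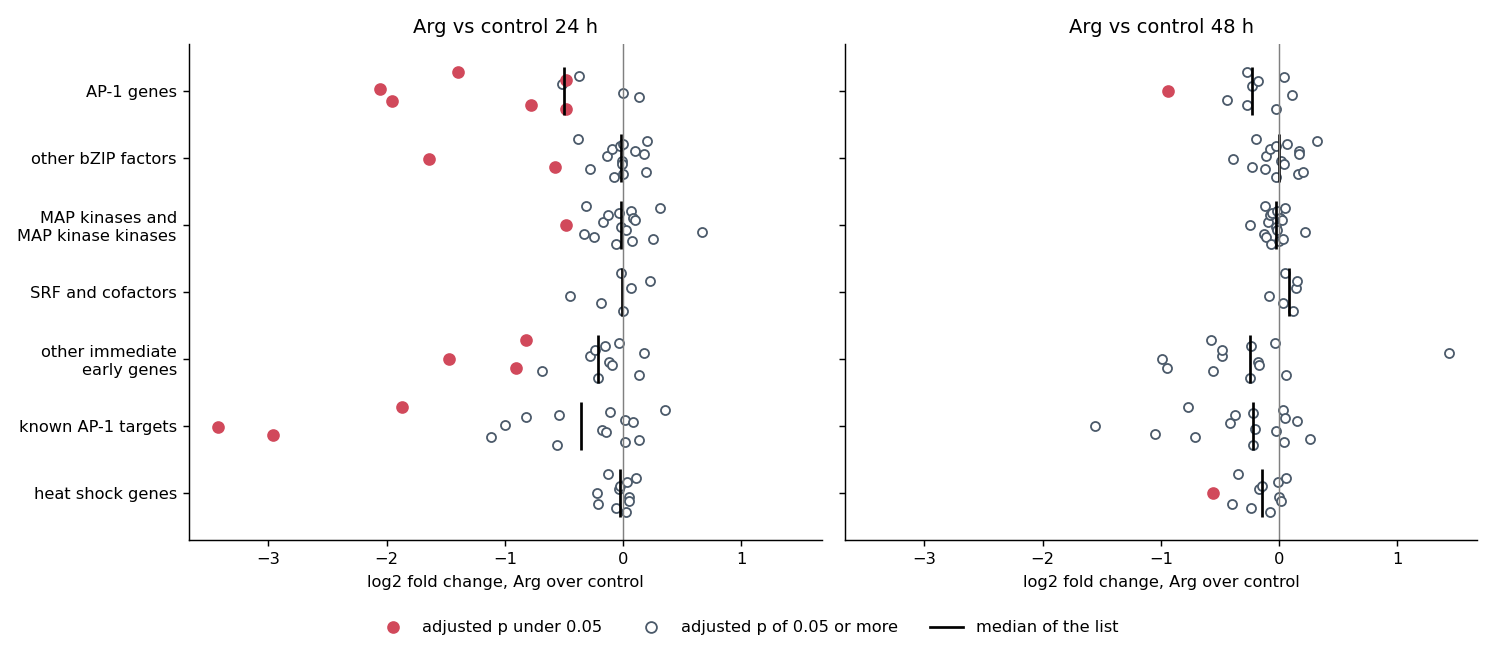
Each point is the log2 fold change of a tested gene, Arg over control (horizontal axis), in the lists named at the left (vertical axis), at 24 h and 48 h, with filled points for an adjusted p under 0.05 and a line at the list's median. The medians at 24 h are -0.50 for the AP-1 genes, -0.36 for the known targets, and -0.21 for the other immediate early genes, and they lie near 0 for the other lists.

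The profiles of the members called with Arg were compared with those of 15147 other genes over the 12 libraries, as the root mean square difference of log2(CPM + 1) centred on each gene's mean. The 3 genes nearest to FOS were DUSP1 (0.33), AQP3 (0.34), and the gene CPM, for carboxypeptidase M (0.40), where the median over all genes was 0.84. AQP3, the water and glycerol channel of keratinocytes, was at 188 to 257 CPM in the control at 24 h and 47.6 to 57.3 CPM with Arg. Nearest to FOSB were VEGFC (0.25), MMP10 (0.27), and ANXA10 (0.28), with a median of 0.91. Those nearest to FOSL1 were SPRY4 (0.17), AREG (0.23), and DKK1 (0.23), with a median of 0.84. SPRY4 is an inhibitor and AREG a ligand of growth factor receptor signalling. ATF3 was nearest to MCF2 (0.24), APCDD1L (0.25), and CHST2 (0.25), with a median of 0.55. For JUN and JUND, whose levels varied less, the nearest were MMP13 (0.12), HBQ1 (0.14), and MACROD1 (0.14), and NMB (0.099), FAM84A (0.12), and PCCA (0.12), with medians of 0.41 and 0.33. The members themselves lay 0.81 (FOS), 0.89 (FOSB), 0.82 (FOSL1), 0.51 (ATF3), 0.36 (JUN), and 0.25 (JUND) from their own means, not far under these medians. MCF2 stayed at or under 1.08 CPM and MMP13 at or under 2.33 CPM in every library. Outside the control at 24 h, MMP10 reached 0.233 CPM and ANXA10 0.536 CPM at most. Such low levels flatten a profile, and all profiles share the same libraries, so the likeness is a description only.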

How the data were processed

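RNA sequencing counts of TIGK cells at 48 mM glucose were analysed, with 3 libraries per group. Per the labels, the authors used fastp, STAR, GRCh38/hg38, and featureCounts, with versions, annotation release, and strand setting not given in the sources used here. They deposited raw integer counts per gene, with gene coordinates and exonic lengths. All count columns were used (0 were left out).

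Groups came from the labels. The members and the gene lists were chosen with earlier results of these data known. Counts were compared in the 6 libraries of each pair of groups with edgeR 4.0.16 (R 4.3.3), using TMM normalization, its filter on low counts, the quasi-likelihood test, and Benjamini-Hochberg adjustment over all genes tested, with calls at an adjusted p under 0.05. The interaction used all 12 libraries. Scripts were tested on simulated data. The standard error is the log2 fold change divided by the square root of the F statistic. CPM values are TMM-normalized, and the level per length divides them by exonic length. Named genes were the 10 members, up to 4 called genes of largest change per list and time, and the 3 nearest profiles per called member. With 3 libraries against 3, an exact permutation test cannot go below 0.1.

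Each result was recomputed with DESeq2 1.42.0, with edgeR on DESeq2 size factors or on library sizes alone, without the filter or with a minimum of 10 counts per library, in 1 model of the 12 libraries, with replicate as a block, and without each library in turn. Leaving out control replicate B at both times was chosen after seeing the data.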

Additional observations from a re-analysis of the deposited data

Results flagged for a closer look

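The effect of Arg on FOS differed between the time points by the test of the interaction, with a difference of 1.11 between the log2 fold changes (-0.94 at 48 h and -2.05 at 24 h; adjusted p = 0.0229, edgeR's quasi-likelihood test). FOS was lower with Arg in 3 of 3 libraries at each time. The call held in 3 of 13 fits that left out libraries, and in the other 10 the adjusted p lay between 0.0510 and 0.178.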

How the results depend on the processing

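The number of members lower with Arg at 24 h lay between 4 and 7 under all alternatives, and 0 were higher under each. The share of all genes called lower in these fits was 1.59% to 6.02%. At 48 h, 2 were lower with DESeq2 and with no filter on low counts (FOS and JUND), and 1 to 4 when 1 library was left out, with 4 without control replicate B. The share of all genes called lower at 48 h was 0.989% with DESeq2 and 1.37% with no filter. It was 8.17% without control replicate B and 0.0336% to 0.0669% with any other library left out. For time in the control, 2 members were higher with DESeq2, library size only, no filter, all 12 libraries, and the replicate block, and 5 were lower with no filter and with the block. Of all genes, 5.94% to 13.6% were higher in these fits, and 6.44% and 14.4% were lower with no filter and with the block. With 1 library left out, 1 to 2 members were higher over time in the control (2.85% to 10.7% of all genes). Without control replicate B at both times, 3 were higher (15% of all genes). For time with Arg, 1 was lower with the minimum of 10 counts per library, in the model of 12 libraries, and with the block, and 1 to 2 with 1 library left out. The number higher was 4 in the model of 12 libraries and with the block, 6 with library size only, and 4 to 6 with 1 library left out. Of all genes, 11.3% were higher in the model of 12 libraries, 13.4% with the block, and 17.8% with library size only. The share lower was 15.3% with the minimum of 10 counts per library and 12.9% with the block. In the model of 12 libraries, 1749 of 15148 genes were lower. With 1 library left out, 10.4% to 12.4% of all genes were higher and 9.31% to 12.9% lower. In the interaction, 2 were called with DESeq2, 4 with no filter, 0 to 3 with 1 library left out, and 4 without control replicate B at both times. The shares of all genes called with a positive difference in these fits were 0.066%, 0.171%, 0% to 0.181%, and 0.415%. The cause of these differences was not tested, except that fewer libraries were used where some were left out. The summed level per length in the control at 48 h was 354 CPM per kb with library size only.

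Reversed signs were found only for members not called. JDP2 at 24 h was at 0.0040 with library size only, 0.00086 with all 12 libraries, and -0.12 to 0.15 with 1 library left out. JUNB over time in the control was at 0.030 with library size only and -0.11 to 0.0042 with libraries left out, and JUND at -0.034 to 0.26. JDP2 in the interaction was at -0.015 without control replicate B at both times. With 1 library left out, the ranges were -0.18 to 0.091 for ATF3 and -0.0098 to 0.081 for FOSL2 with Arg at 48 h, -0.046 to 0.19 for JUNB over time with Arg, and -0.67 to 0.85 for BATF3, -0.012 to 0.23 for JUNB, and -0.048 to 0.23 for JDP2 in the interaction.

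With library size only, the split of all genes called over time moved from 1431 higher and 1451 lower to 1845 and 1008 in the control, and from 2060 and 2012 to 2568 and 1453 with Arg, and the median of all genes moved to 0.072 and 0.058.

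The letters A, B, and C were not shown to pair the libraries throughout. The correlations of same-lettered deviations lay between -0.12 and 0.23, and 1, 3, 4, and 0 of 6 libraries correlated best with their own letter (Arg at 24 h, Arg at 48 h, time in the control, time with Arg). For time in the control, all of these correlations were positive, at 0.069 to 0.23. There the block moved the calls over all genes from 1431 higher and 1451 lower to 1969 and 2075. With the replicate block, 7 members were lower at 24 h, with JUNB added (adjusted p = 0.0258), and 1 at 48 h, and FOS had a difference of 1.09 in the interaction (0.00543). Of all genes, 3.82% were lower with the block at 24 h and 0.968% at 48 h, against 3.84% and 0.117% without it. Depth limits BATF3, with 6 to 50 counts per library, and FOSB, with 38 to 356.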

Other observations

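Other lists also differed between 24 and 48 h. Of the 11 heat shock genes, 7 were lower and 1 higher at 48 h in the control, and 9 were lower and 1 higher with Arg, in edgeR's quasi-likelihood test. Of the known AP-1 targets, 6 of 16 tested were lower and 1 higher in the control, and 6 of 15 were lower and 1 higher with Arg. Among all genes tested, 10% were lower and 9.9% higher at 48 h in the control, and 14% and 14.3% with Arg. In the interaction of Arg and time, the lowest adjusted p was 0.708 among the heat shock genes and 0.652 among the targets.

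Of the marker lists with Arg at 24 h, edgeR's quasi-likelihood test called ITGA6, a basal integrin, among 12 keratinocyte markers (-0.40, SE 0.084, adjusted p = 0.00840) and DCN, decorin, among 4 fibroblast markers tested (-0.70, SE 0.18, adjusted p = 0.0294). DESeq2 called 1 keratinocyte marker lower and 1 higher, and 0 fibroblast markers. Among all genes at 24 h, edgeR's test called 3.84% lower and 2.79% higher, and DESeq2 4.52% and 3.46%. At 48 h, 0 of 12 keratinocyte and 0 of 4 fibroblast markers tested were called by edgeR's quasi-likelihood test or DESeq2. At an unadjusted p under 0.05, 1 keratinocyte marker was lower and 2 were higher at 48 h, against 7.49% and 5.94% of all genes. The 1 melanocyte marker tested had an adjusted p of 0.629 at 24 h and 0.674 at 48 h, and the 1 immune or endothelial marker tested at 48 h had an adjusted p of 0.864.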
